A study of Mus musculus with 4 samples.

Results

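The Hox gene clusters of the mouse genome carry the genes of a small set of miRNAs, and 7 mature arms of them were sought in small RNA profiles of the medial prefrontal cortex: mmu-miR-10a-5p, mmu-miR-10a-3p, mmu-miR-10b-5p, mmu-miR-10b-3p, mmu-miR-196a-5p, mmu-miR-196b-5p and mmu-miR-615-3p. They were chosen by name, as miRNAs encoded within Hox clusters, and the rule used no values of the samples. Earlier results of these data were known when the choice was made. The prefix mmu for the mouse is left off below. The table of 1038 miRNAs holds 3 of these arms, miR-10a-5p, miR-10b-5p and miR-196b-5p. The other 4 were not analysed here, and neither were the opposite arms of the same hairpins.

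The samples were 4 small RNA libraries of male mice, given as C57BL/6 in the labels and as C57BL/6J in the study's methods. The methods call the mice juvenile and describe the start of the model. The mice were older at collection, which followed adaptation, the 3 weeks described next and behaviour tests. In the CUMS group, 2 libraries came from mice that lived for 3 weeks under chronic unpredictable mild stress, a schedule of varied mild stressors such as isolation, tilted or damp cages, restraint, noise and disturbed light cycles. Only stressed mice whose behaviour tests had turned depression-like were taken, so the group is a selected share of the stressed animals. The control group was 2 libraries from mice kept without these stressors, and both groups share the strain, the sex, the dissection and the library protocol. RNA was isolated per mouse, but the labels do not say how many animals stand behind a library, so p-values measure only the spread between these libraries, which may be technical.

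Reads of single libraries were recovered from the deposited group means, and the pair in each group is named a and b here because the means carry no replicate number. The libraries held between 9589323 and 10783592 reads on known miRNAs, and 3 reads, taken as the floor of detection, correspond to between 0.278 and 0.313 CPM, that is counts scaled to the same total of miRNA reads in each library. Markers listed for forebrain and neurons, such as miR-9-5p and miR-124-3p, were present in all 4 libraries. The table held 5 of 5 of them, with a summed level between 727910 and 964844 normalized reads. Normalized reads are reads divided by the size factor of the library, a scaling for depth that lay between 0.944 and 1.06. Control library b stood apart from the other libraries in miRNAs of sensory and other epithelia. The 8 of 8 listed members of that group sum to 1004812 normalized reads there and to between 4047 and 7329 in the other 3 libraries. The group differences of the miR-10 arms, their sum and their ratio are therefore also given without control library b.

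Hox genes encode transcription factors that give cells along the body axis their positional identity, and they are arranged in clusters in which the order of the genes follows their order of expression from head to tail. The miR-10 and miR-196 genes lie between or within these genes and are largely expressed along with them, in the hindbrain, spinal cord and trunk rather than in the forebrain. Like other miRNAs, their mature arms pair through the seed, the bases near the 5′ end, with sites in the 3′ untranslated regions of mRNAs, among which Hox mRNAs are well known for both families.

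The mature arms are printed first because miR-10a-5p and miR-10b-5p are nearly the same molecule, and their separate counts rest on 1 base. The sequences are those of RefSeq on GRCm38.p6, given 5′ to 3′, with the seed (bases 2 to 8) in capitals. They are grouped by seed, and miR-196a-5p, whose level was not analysed here, stands beside its close copy.
miR-10a-5p: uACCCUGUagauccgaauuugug
miR-10b-5p: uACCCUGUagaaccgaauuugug
miR-196b-5p: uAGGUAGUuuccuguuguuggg
miR-196a-5p: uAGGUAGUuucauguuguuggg

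With positions counted from 1 at the 5′ end, miR-10b-5p differs from miR-10a-5p by the substitution U12A, outside the shared seed. miR-196b-5p differs from miR-196a-5p by A12C, also at position 12 and outside the seed. Any stretch of at least 12 bases of these arms includes that base. The authors counted only reads that matched a precursor without a mismatch and that overlapped the mature arm by more than this, so a counted read can be told apart between miR-10a-5p and miR-10b-5p. Between the families, miR-10a-5p and miR-196b-5p differ by 11 edits and share no seed.

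The hairpins show where in each precursor the counted arm lies. In the next lines the mature arm is in capitals, and Mir196b is written on its own strand, the minus strand.
Mir10a: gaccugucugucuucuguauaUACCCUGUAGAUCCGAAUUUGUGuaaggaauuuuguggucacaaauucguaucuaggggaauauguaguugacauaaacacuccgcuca
Mir10b: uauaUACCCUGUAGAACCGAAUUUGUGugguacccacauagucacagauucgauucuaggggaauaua
Mir196b: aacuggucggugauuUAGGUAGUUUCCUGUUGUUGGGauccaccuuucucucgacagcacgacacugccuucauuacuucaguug

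Mir10a lies on chr11:96317165-96317274 (GRCm38, plus strand) in the Hoxb cluster. It falls in no other annotated gene, 11043 bases after the end of Hoxb5 and 992 bases before the start of Hoxb4. Mir10b lies on chr2:74726070-74726137 (plus strand) in the Hoxd cluster, within introns of Hoxd3 and Hoxd4 on the same strand. Mir196b lies on chr6:52230081-52230165 (minus strand) in the Hoxa cluster, where it overlaps an exon of a Hoxa9 transcript on the same strand. The 3 arms that were measured thus come from 3 clusters on different chromosomes.

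In these cortices the miR-10 arms were present at a middling to high level and miR-196b-5p was at the edge of detection. miR-10b-5p ranked 84 of 1038 by its mean normalized reads, above 91.9% of the miRNAs, and miR-10a-5p ranked 118, above 88.6%. miR-196b-5p ranked 771, above 25.7%. Between CUMS and control, none of the 3 passed a test adjusted over all miRNAs.

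miR-10a-5p (mmu-miR-10a-5p) is the arm from the Hoxb cluster. It had 4158 and 3315 normalized reads in the control libraries a and b, and 1662 and 3028 in the CUMS libraries a and b. The groups did not overlap, as the higher CUMS library was still below the lower control library, but CUMS library b came close to control library b. Before scaling, these were 4251, 3316, 1765 and 2858 reads in the same order. As CPM, control library b had 308 (95% Wilson interval 297 to 318) and CUMS library b 298 (287 to 309), and these intervals overlapped. The epithelial miRNAs are part of the total of control library b, and in normalized reads the intervals of the pair, 3204 to 3429 and 2919 to 3141, did not overlap. Whether these libraries differed by more than counting error thus depended on the scale. CUMS library a, with 169 CPM (162 to 177), was well below all others, and control library a, with 404 CPM (392 to 416), was well above. Reads carry no molecular identifiers, so all intervals and floors here cover counting error only.

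The control mean of miR-10a-5p was 3736 ± 596 normalized reads and the CUMS mean 2345 ± 966 (SD, n = 2 each), a CUMS mean of 62.8% of the control mean, or 1.59-fold lower. On the log2 scale the difference was −0.67, and −0.83 without control library b. An exact two-sided permutation test over the 4 libraries gave p = 0.333, the smallest value that 2 libraries against 2 allow. edgeR's quasi-likelihood test on the recovered reads gave a log2 difference of −0.71 with p = 0.0616, and an adjusted p of 0.849 over the 719 miRNAs tested. DESeq2's Wald test gave −0.68 with a standard error of 0.26, an unadjusted p of 0.0104 and an adjusted p of 0.573. The difference of miR-10a-5p between the groups therefore did not pass an adjusted test by either tool. In bulk tissue, fewer cells that hold a miRNA and less of it per cell cannot be told apart, for this arm as for the others.

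miR-10b-5p is the arm from the Hoxd cluster and the most abundant of the 3. It had 8360 and 5927 normalized reads in the control libraries a and b, and 3093 and 8948 in the CUMS libraries a and b. The groups overlapped fully, since the CUMS libraries held both the lowest and the highest of the 4 values. The reads behind them were 8547, 5929, 3285 and 8445. In CPM the 4 libraries were 811 (794 to 829), 550 (536 to 564), 315 (304 to 326) and 881 (862 to 900). No pair of these Wilson intervals overlapped, and the libraries of 1 group therefore differed by more than counting error.

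The control mean of miR-10b-5p was 7143 ± 1721 normalized reads and the CUMS mean 6020 ± 4140 (SD, n = 2 each). The log2 difference of −0.25, or −0.47 without control library b, was smaller than the spread between the CUMS libraries, and the exact two-sided permutation p was 1.0. edgeR gave −0.29 with an adjusted p of 0.931, and DESeq2 gave −0.25 with a standard error of 0.76 and an adjusted p of 0.998. The group difference of miR-10b-5p passed neither test.

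**Figure D1:**
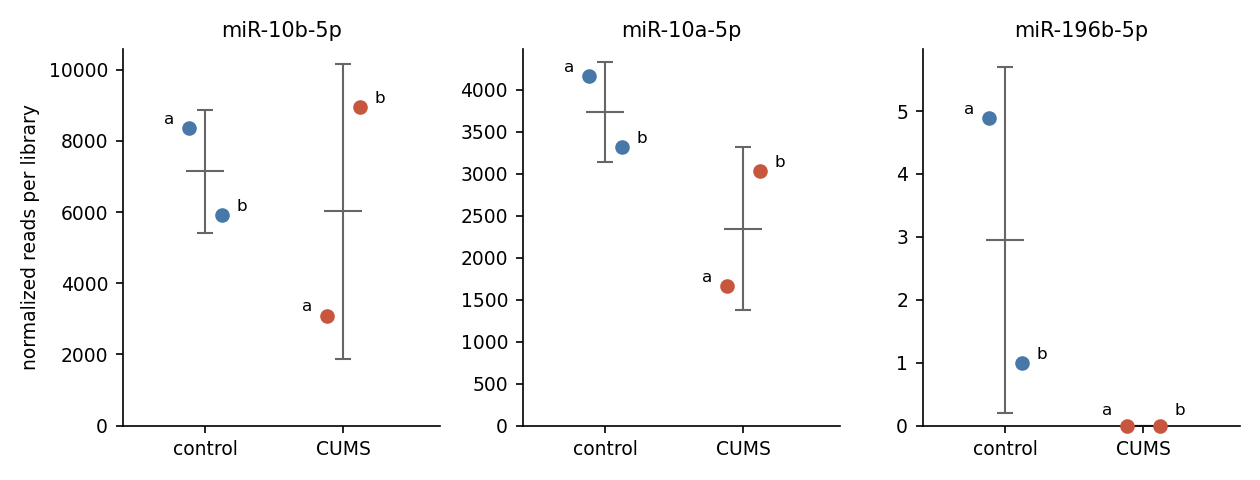
Normalized reads per library (vertical axes, each with its own range and starting at 0) of miR-10b-5p, miR-10a-5p and miR-196b-5p in the control and CUMS groups. Points are the libraries a and b, and the bars give the mean ± SD of 2 libraries. The CUMS libraries of miR-10b-5p lie on both sides of the control libraries, those of miR-10a-5p lie below them at 1662 and 3028, and those of miR-196b-5p are at 0.

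miR-196b-5p is the arm from the Hoxa cluster, from a gene that is expressed toward the tail end of the body. It had 5 reads in control library a, 1 read in control library b and 0 reads in both CUMS libraries. In normalized reads these are 4.89, 1.00, 0 and 0, which gives a control mean of 2.95 ± 2.75 (SD, n = 2). The 6 control reads have an exact Poisson interval of 2.20 to 13.1 reads and correspond to 0.281 CPM (0.103 to 0.613) of 21317238 reads. The 0 reads of the CUMS group among 20016948 allow up to 0.150 CPM, counting 3 reads over the group.

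That floor lies within the counting interval of the control level of miR-196b-5p, so no fold is given. The exact two-sided permutation p was 0.333, and the adjusted p was 0.849 by edgeR and 0.998 by DESeq2. A difference of miR-196b-5p between the groups was not detectable at this depth. The arm passed the filter of at least 5 reads in a library only through control library a, where it was highest.

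Read by counts, 2 of the 3 arms averaged 5 or more normalized reads in either group, and of these 1, miR-10a-5p, was lower in CUMS by a fold above 1.5 and 0 were higher. Among all miRNAs with such a mean, 13.7% were lower by that fold (86 of 628). Both CUMS libraries lay below both control libraries for miR-10a-5p, as they did for 17.1% of all miRNAs that reached 5 reads in some library (123 of 719). miR-196b-5p was separated in the same direction, but it reached that filter only through the group where it is high, and it is left out of this reading. The edgeR test called 0 of the 3 arms at an adjusted p under 0.05, and over the whole table it called 0.00% (0 of 719), with 30 miRNAs at an unadjusted p under 0.05, among them 0 of the 3 arms. DESeq2 also called 0 miRNAs after adjustment, with 24 at an unadjusted p under 0.05, of which 1, miR-10a-5p, was among the arms. The median log2 difference over the 628 miRNAs was 0.02, close to 0.

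As folds, the CUMS libraries differed from each other by more than the group means did for both miR-10 arms, with folds of 1.59 and 1.19 between the means of miR-10a-5p and miR-10b-5p. CUMS library b had 1.82 times as much miR-10a-5p and 2.89 times as much miR-10b-5p as CUMS library a. Between the control libraries, a had 1.25 times as much miR-10a-5p and 1.41 times as much miR-10b-5p as b. Both arms were thus lowest in CUMS library a, and in both groups the same library was the higher for each arm.

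This spread within the CUMS group can be set beside that of the 170 miRNAs that averaged 1000 or more normalized reads. Their median absolute log2 difference between the CUMS libraries was 0.21, and between the control libraries 0.14. The log2 difference of miR-10b-5p between CUMS libraries was 1.53, the largest of the 170. That of miR-10a-5p was 0.87, the fourth largest, after miR-141-3p with 1.36 and miR-146b-5p with 0.98. miR-141-3p reached an average of 1000 only through control library b, with 5210 normalized reads there. It was sparse elsewhere, with 27.4 in control library a and 13.2 and 33.9 in CUMS libraries a and b. Between the control libraries the differences were −0.50 for miR-10b-5p and −0.33 for miR-10a-5p, at places 14 and 33 of the 170. Of the 170 miRNAs, 40 (23.5%) had their lowest value in CUMS library a, so a low value there was not general to abundant miRNAs.

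**Figure D2:**
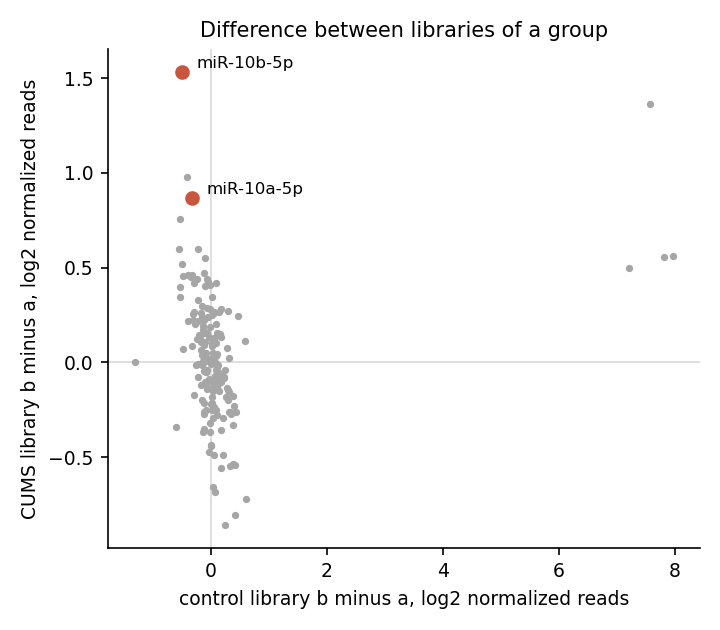
Log2 difference of normalized reads between library b and library a of the control group (horizontal axis) and of the CUMS group (vertical axis) for the 170 miRNAs that averaged 1000 or more. Each grey point is a miRNA and the red points are the miR-10 arms, with CUMS differences of 1.53 and 0.87. Between them on the vertical axis lie miR-141-3p at 1.36 and miR-146b-5p at 0.98. The 4 points far to the right are miRNAs that were high in control library b.

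The balance between the arms was steadier than their levels, with an exception. Control library a held 2.01 reads of miR-10b-5p per read of miR-10a-5p (95% interval 1.94 to 2.09), and control library b held 1.79 (1.71 to 1.87). The intervals of the control libraries did not overlap, so their ratios also differed by more than counting error. In CUMS library a the ratio was 1.86 (1.76 to 1.97), within the range of the control libraries, although both arms were at their lowest there. In CUMS library b it was 2.95 (2.83 to 3.08), above the other 3 libraries and with an interval apart from theirs. As a share, miR-10b-5p made up 66.8%, 64.1%, 65.0% and 74.7% of the miR-10 reads in control a, control b, CUMS a and CUMS b. The mean ratio was 1.90 ± 0.157 in control and 2.41 ± 0.773 in CUMS (SD, n = 2 each), and the exact two-sided permutation p was 0.667. The log2 difference of the mean ratio was 0.34, and 0.26 without control library b.

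**Figure D3:**
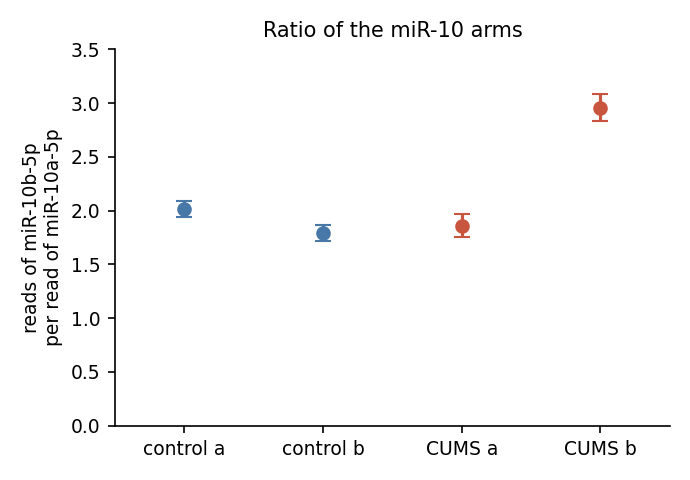
Reads of miR-10b-5p per read of miR-10a-5p (vertical axis, from 0) in each of the 4 libraries. Points are the ratios and bars their 95% Wilson intervals, which cover counting error only; CUMS library b, at 2.95, lies above the other libraries, which lie between 1.79 and 2.01.

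Since both arms share a seed, their sum gives the total of that seed from these hairpins. The sum was 12518 and 9241 normalized reads in the control libraries a and b, and 4755 and 11976 in the CUMS libraries a and b. It made up 0.121%, 0.0857%, 0.0484% and 0.118% of all miRNA reads in these libraries. CUMS library b thus reached nearly the level of control library a, while CUMS library a had the lowest total. The log2 difference between the group means of the sum was −0.38, with an exact two-sided permutation p of 0.667, and −0.58 without control library b.

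Leaving out libraries shows how far the group differences rest on single ones. Without control library b, both log2 differences were further below 0, and the lowest adjusted p of the 3 arms by edgeR was 0.393. Without CUMS library a, the difference of miR-10a-5p fell to −0.30 and that of miR-10b-5p turned to 0.32, higher in CUMS. Without CUMS library b they were −1.17 and −1.21. miR-10a-5p stayed lower in CUMS with any 1 library left out, but past a fold of 1.5 only with all 4 libraries, without control library b or without CUMS library b. The direction of miR-10b-5p was not stable, since it was also 0.02 without control library a.

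**Figure D4:**
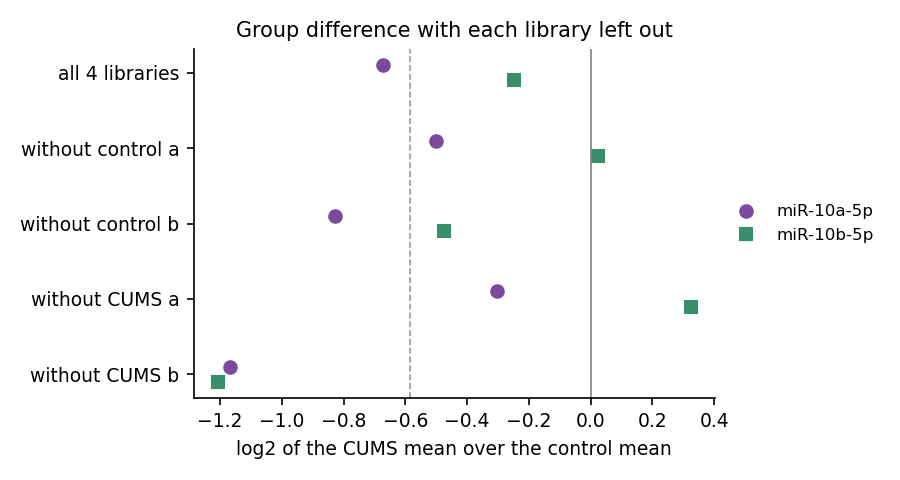
Log2 of the CUMS mean over the control mean (horizontal axis) for miR-10a-5p (circles) and miR-10b-5p (squares) with all 4 libraries and with each library left out. The solid line marks no difference and the dashed line a fold of 1.5 lower in CUMS; miR-10a-5p stays left of the solid line, between −1.17 and −0.30, and miR-10b-5p lies on both sides of it, between −1.21 and 0.32.

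The nearest relatives of the miR-10 arms by sequence are miR-99a-5p, miR-99b-5p and miR-100-5p, whose genes lie outside the Hox clusters. They are shown because they resemble the miR-10 arms closely but have another seed (capitals).
miR-99a-5p: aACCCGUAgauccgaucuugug
miR-99b-5p: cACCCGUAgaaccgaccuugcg
miR-100-5p: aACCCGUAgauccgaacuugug

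miR-10a-5p is 3 edits away from miR-100-5p and 4 from miR-99a-5p, and miR-10b-5p is 5 edits away from miR-99b-5p. miR-99a-5p had 25746 and 26549 normalized reads in the control libraries a and b, and 33866 and 30509 in the CUMS libraries a and b. miR-100-5p had 136134 and 167015 in control and 173314 and 156509 in CUMS. miR-99b-5p had 393555 and 499880 in control and 544501 and 451055 in CUMS. All 3 relatives were highest in CUMS library a, the library in which both miR-10 arms were lowest, and all were more abundant than the miR-10 arms. Their log2 differences between the groups were 0.30, 0.12 and 0.16 for miR-99a-5p, miR-100-5p and miR-99b-5p, with adjusted p of 0.849, 0.941 and 0.931 by edgeR, so no group difference passed the test for them either.

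By the shape of their profile over the 4 libraries, the miRNAs most like the miR-10 arms were other families. Likeness was measured as the root mean square distance between profiles of log2(normalized reads + 1), each less its own mean, among 372 miRNAs that averaged 50 or more in either group. Nearest to miR-10b-5p were miR-146a-5p at 0.146, miR-146b-5p at 0.207 and miR-296-3p at 0.225, against a median of 0.635. Nearest to miR-10a-5p were miR-146b-5p at 0.110, miR-384-5p at 0.125 and miR-146a-5p at 0.201, against a median of 0.521. The arms themselves were 0.288 apart, with 6 miRNAs closer to miR-10b-5p and 9 closer to miR-10a-5p than the other arm was.

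The reads of these neighbours show the same low value in CUMS library a. miR-146b-5p had 9854, 7260, 4386 and 7667 reads in control a, control b, CUMS a and CUMS b. miR-146a-5p had 960, 774, 456 and 922 reads, and miR-384-5p had 640, 413, 245 and 346. miR-296-3p was sparse, with 62, 60, 35 and 86 reads. All 4 were lowest in CUMS library a, as the miR-10 arms were. They were chosen for profiles like those of the miR-10 arms over these libraries, so this largely follows from the choice. With 4 libraries such likeness is a description only.

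Markers of other cells in the dissected tissue were set beside the miR-10 arms in the same order of libraries. The 5 of 5 listed miRNAs of endothelial and mural cells summed to 311823, 223717, 218380 and 308740 normalized reads. This sum was higher in control library a than in b and higher in CUMS library b than in a, the order that the sum of the miR-10 arms also had within each group. The sums of the forebrain and neuron list and of the red cell list had this order as well. The forebrain and neuron sum was mostly miR-9-5p, with 617336, 501726, 546028 and 730096. In that list miR-138-5p, with 20719, 27544, 34005 and 23370, had the opposite order in both groups. miR-128-3p had it in the CUMS group only, with 202862 in library a and 169094 in b. Each member of the red cell list had the order of its sum. The endothelial and mural sum consisted mostly of miR-143-3p, a miRNA of smooth muscle, with 297462, 210103, 204512 and 293168, and 1 of the 5 markers was lowest in CUMS library a. The highest sum was 1.43 times the lowest. Members of this list did not all share its order. miR-126a-3p, with 1810, 1868, 1735 and 1589, and miR-145a-3p, with 518, 724, 705 and 577, had the opposite order in both groups. miR-126a-5p and miR-145a-5p had the order of the sum. The part of these cells in the miR-10 levels was not tested.

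The 4 of 4 miRNAs of fibroblasts and meninges summed to 274, 275, 244 and 381 normalized reads. Their sum was lowest in CUMS library a and highest in CUMS library b. It was mostly miR-199a-3p, with 247, 248, 228 and 344, and 2 of the 4 members were lowest in CUMS library a. The sparse members miR-199b-5p and miR-214-3p were lowest in control library a, with miR-214-3p at 0 there. Both were higher in CUMS library a than in CUMS library b. The 2 of 2 miRNAs of choroid plexus summed to 16941, 22015, 15959 and 12627, and the 4 of 4 of red cells to 119842, 115264, 114665 and 135359. The red cell sum was also lowest in CUMS library a and highest in CUMS library b, and 3 of its 4 members were lowest in CUMS library a, the largest share of any list. The forebrain and neuron list, with 854580, 727910, 819331 and 964844, had none of its 5 members lowest in CUMS library a. The epithelial miRNAs that set control library b apart did not move with the miR-10 arms, which were in the middle of their range in that library. The part of any of these cells in the differences between libraries was not tested.

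Which mRNAs could pair with these seeds was looked up in the annotation, because Hox mRNAs are well-known partners of both families. No test was made of these shares. The complement of the miR-10 seed, ACAGGGT, read on the strand of the mRNA, is in the longest annotated 3′ untranslated region of 4 of 39 Hox genes (10.3%), among them Hoxa3 and Hoxd1. It is in 2622 of 20985 other protein coding genes (12.5%), so Hox genes held it about as often as others. The complement of the miR-196 seed, ACTACCT, is in 9 of 39 Hox genes (23.1%), against 1271 of 20985 others (6.06%), with median lengths of 966 and 960 bases. Among these genes are Hoxa9 and Hoxa7, and Hoxa7 holds 4 matches.

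For each family, 2 of these seed matches are printed, with the complement of the seed in capitals and coordinates on GRCm38. They are among those with the most complementary bases over the whole arm. Only A with U and G with C were counted, without gaps. G with U pairs and sites without an exact complement of the seed were not sought, so better pairing elsewhere in Hox mRNAs may have been missed. For miR-10a-5p, the window in Hoxd1 (chr2:74764930-74764952, plus strand) has 13 of 23 complementary positions and that in Hoxa3 (chr6:52169653-52169675, minus strand) has 10, tied with Hoxb3. For miR-196b-5p, the window in Hoxa9 (chr6:52223900-52223921, minus strand) has 15 of 22 and the best of Hoxa7 (chr6:52215210-52215231, minus strand) has 14, tied with Hoxb7.
Hoxd1: tagcggaacaaatccACAGGGTa
Hoxa3: actctttgataagaaACAGGGTa
Hoxa9: caaaaggaaagaaaACTACCTt
Hoxa7: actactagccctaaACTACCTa

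Hoxa9 holds such a match in its 3′ untranslated region and is also the gene whose transcript the Mir196b hairpin overlaps. A match is a description of the letters, not a site in use, and mRNA levels were not analysed here.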

How the data were processed

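Small RNA of 2 control and 2 CUMS libraries was sequenced by the authors. They removed adaptors, poor reads and other noncoding RNAs, matched the rest to miRBase precursors without mismatch, and compared the groups with DESeq. The submitters' processing notes name Bowtie, DESeq and mm10, with no versions. The deposited signal is the mean normalized count per group. Its columns were assigned to groups by values printed in the paper. Deposited folds and p-values were not used. Columns of single samples not used numbered 0. Whole reads were recovered for 100% of 1038 values (tolerance 1e-09, with 2 control values near a second solution), with 2 steps solved per group, since the values that 1 read adds to the mean differ between its libraries by 2.19% in control and 12.5% in CUMS. Counts with at least 5 reads in a library were tested with edgeR 4.0.16 (TMM, quasi-likelihood) and DESeq2 1.42.0 in R 4.3.3, with Benjamini-Hochberg adjustment, after tests on simulated data. In simulated reads with 200 of 719 miRNAs changed 4-fold, edgeR called 66.0% of these and DESeq2 61.0%. Of the unchanged miRNAs they called 0 and 3. Smaller folds, such as those of the miR-10 arms, were not simulated. Other steps used Python 3.11.15, numpy 2.4.6, pandas 2.3.3, scipy 1.17.1 and matplotlib 3.10.9. Loci and 3′ untranslated regions came from GENCODE M21 and RefSeq. All 7 sought arms, their relatives by sequence and the 3 nearest profiles of each of the 2 most abundant arms were named. Marker lists were given as sums and counts, with some members named. The members and lists were chosen with earlier results of these data known. miR-141-3p and the marker list members whose values or order are described were named after their values were seen.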

Additional observations from a re-analysis of the deposited data

How the results depend on the processing

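The number of arms past a fold of 1.5 was 1. It became 2 with a mean of at least 1 or with no minimum mean, which add miR-196b-5p, and 0 with a fold of 2. It ranged from 0 to 2 when a library was left out, with 0 without control library a, 0 without CUMS library a and 2 without CUMS library b. It stayed 1 with a pseudocount of 1, group means rescaled by the median, CPM, TMM or a mean of at least 50. The log2 difference of miR-10a-5p was negative in all 9 alternatives and that of miR-10b-5p in 7 of 9. These include the sum of both arms, the same value of −0.38 for each. They also include a pseudocount and changes of scale, which moved the differences little, so these counts do not measure stability. The sign of miR-10b-5p changed only with a library left out. The adjusted test called 0 arms in all 7 alternatives, with the lowest adjusted p among the arms between 0.393 and 0.995. Without control library a, edgeR called 12 of 690 miRNAs, none of them an arm of these clusters. Summing miR-196a-5p with miR-196b-5p was not run, as the former was not analysed here. No paired analysis was possible because the values carry no replicate numbers. The sum and the ratio without control library b, chosen after seeing the data, kept their direction. With 6 reads in all, miR-196b-5p is limited by depth.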
